A study of Mus musculus with 10 samples.

Results

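The nuclear genes for the subunits of oxidative phosphorylation were followed in single-cell RNA-seq of the cortex of mouse embryos that carry a disrupted Gatad2b gene. The genes were taken by name: all Nduf subunit symbols of series a, b, c, s and v, Ndufab1, the 4 Sdh genes, all symbols that begin with Uqcr, Cyc1, the Cox4 to Cox8 symbols, and all symbols that begin with Atp5. The rule found 85 gene identifiers with 84 distinct symbols among 31053 features. By the start of the symbol, 36 were counted with complex I, 4 with complex II, 9 with complex III, 19 with complex IV and 17 with ATP synthase. The role of each product was not checked further. The exception was Ndufa4, first described as a complex I protein, which was counted with complex IV. In summed cells 82 of the 85 had enough UMIs (unique molecular identifiers, each standing for 1 captured RNA molecule) to be tested. The other 3 were Cox8b, Cox8c and a second identifier named Atp5o, each with 4 UMIs or fewer in all 10 embryos together.

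The cortex of 10 embryos at E16.5 was dissociated whole, and each embryo gave 1 library made with a kit that captures the 3′ end of RNA. The WT group had 3 embryos with intact Gatad2b, the Het group 4 embryos with the genotype Gatad2b stop/+, and the KO group 3 embryos with the genotype Gatad2b stop/stop, on a C57BL/6N-Atm1Brd background. The stop allele (tm1a(EUCOMM)Hmgu) is a germline trapping cassette placed in an intron and leaves the exons of Gatad2b in the genome, so every cell of a Het or KO embryo carries it. Reads from any transcript that still holds the exons are counted. The paper names splicing past the cassette as a possible source of wild-type mRNA, which was not examined here. It found Gatad2b protein undetectable in stop/stop cerebellum by western blot, and absent from cortical nuclei of stop/stop embryos by immunostaining. Gatad2b encodes a subunit of the NuRD chromatin remodelling and deacetylase complex. The study asked how cortical development responds to loss of 1 or both copies.

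Oxidative phosphorylation makes ATP at the inner mitochondrial membrane. Complexes I and II pass electrons from NADH and succinate to ubiquinone, complex III passes them to cytochrome c, and complex IV passes them to oxygen. Complexes I, III and IV pump protons, and ATP synthase lets them flow back to make ATP. Mitochondrial DNA encodes a few core subunits of all but complex II, while the remaining subunits are encoded in the nucleus and imported. Neural progenitors rely on glycolysis to a larger extent than neurons do.

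Gatad2b itself followed the labels. Its level, in UMIs per 1000000 UMIs of the embryo (CPM, scaled for library composition by TMM), was 139, 131 and 133 in WT, 94.2, 89.8, 90.0 and 95.7 in Het, and 50.9, 52.8 and 57.3 in KO, and the groups did not overlap. Its log2 fold change was -0.54 in Het against WT, -1.33 in KO against WT and -0.77 in KO against Het. Barcodes with fewer than 1000 UMIs or with over 10% of them mitochondrial were dropped, and 5147 to 8103 cells with 82872641 to 123737385 UMIs per embryo were kept. Between 1.35% and 1.87% of the cell barcodes of a library also occurred in another library. The names of the deposited libraries carry 1 of 2 prefixes whose meaning is not given. Prefix A marks the 3 WT embryos and Het replicate 4, and prefix B marks Het replicates 1 to 3 and the 3 KO embryos. KO and WT therefore cannot be told apart from prefix B and prefix A, except through Het replicate 4. KO against Het was tested within 1 prefix, by a fit with the prefix as a covariate. The share of UMIs from mitochondrial genes was 3.67% to 4.00% under prefix A and 4.30% to 4.67% under prefix B.

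Together the 85 genes held 2.33%, 2.42% and 2.34% of all UMIs in WT, 2.38%, 2.42%, 2.45% and 2.38% in Het, and 2.41%, 2.32% and 2.26% in KO. The means were 2.37% ± 0.05 (SD, n = 3), 2.41% ± 0.04 (n = 4) and 2.33% ± 0.07 (n = 3), and the ranges overlapped. Complex III held 0.230% ± 0.0031 of UMIs in WT and 0.215% ± 0.0101 in KO, with KO replicate 1 at 0.226% and the other two at 0.210% and 0.209%. Complex II held 0.0352% ± 0.0010 in WT and 0.0374% ± 0.0013 in KO. These sums are descriptions without a test. They pool all cells, where fewer cells of a type and less RNA per cell cannot be told apart, and subventricular zone-like cells were 3.37% to 3.72% of cells in WT and 6.04% to 6.92% in KO. The part of that share in the values over all cells was not tested.

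KO against WT was compared first, although it is also prefix B against prefix A. In edgeR's quasi-likelihood test over 17647 genes, a gene was called when it moved by more than 0.25 on the log2 scale with a Benjamini-Hochberg adjusted p below 0.05. Of the 82 genes 4 rose and 5 fell, where 12% of all genes rose and 12.5% fell. Without the fold threshold 20 rose and 7 fell, against 18.9% and 17.9% of all genes. The median log2 fold change of the 82 genes was 0.08 (all genes -0.01), and 55 of 82 were positive. With the prefix as a covariate none of the 82 passed in edgeR (3 at an unadjusted p under 0.05, against 24.2% of all genes), where 8.31% of all genes were called in either direction, and the median became -0.05. Of the 9 called genes, Cox6b2 then stood at 0.47 and Ndufv3 at -0.265, against 0.58 and -0.31 without the covariate. Atp5k stood at -0.269, Ndufa3 at -0.22, Uqcr11 at -0.18 and Atp5e at -0.13, while Ndufab1 (0.05), Atp5o (0.02) and Sdhd (-0.0036) lay near 0.

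In complex I, 10 of 36 genes passed higher and 3 lower at the adjusted p (all genes 18.9% and 17.9%, as for the complexes that follow), and Ndufab1, Ndufa3 and Ndufv3 also passed the fold threshold. Ndufab1, the mitochondrial acyl carrier protein, stood at 202, 211 and 197 CPM in WT, 262, 269, 259 and 213 CPM in Het, and 260.1, 276 and 247 CPM in KO. All KO embryos lay above all WT embryos, and Het replicate 4 lay with WT while the other Het embryos lay with KO. The log2 fold change of Ndufab1 in KO against WT was 0.36 (adjusted p 0.00472). Ndufa3, an accessory subunit, stood at 201, 228 and 197 CPM in WT, 147, 147, 167 and 197 CPM in Het, and 165, 130 and 125 CPM in KO (log2 -0.58, adjusted p 0.00442). Het replicate 4 lay next to the lowest WT embryo and the other Het embryos lay below it. Ndufv3, an accessory subunit of the NADH-binding module, fell by 0.31 on the log2 scale (adjusted p 0.00335), with 194, 205 and 192 CPM in WT, 171, 184, 190.4 and 188 CPM in Het, and 176, 148 and 153 CPM in KO. Het replicate 1 lay inside the KO range and the other Het embryos lay between KO and WT.

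In complex II, 2 of 4 genes passed higher. Sdhd, a membrane anchor of succinate dehydrogenase, stood at 52.4, 59.0 and 44.6 CPM in WT, 66.6, 69.1, 68.5 and 50.8 CPM in Het, and 67.3, 75.7 and 65.7 CPM in KO (log2 0.42, adjusted p 0.0193). All prefix B embryos lay above all prefix A embryos. Sdhc, the other membrane anchor, passed at the adjusted p only, and lost it in 6 of 10 fits that left out an embryo. In complex III, 1 of 9 genes passed higher (Uqcrfs1, the Rieske iron-sulfur protein) and 2 lower (Uqcr11 and Uqcr10, small accessory subunits), and Uqcrfs1 also lost the adjusted p in 6 of 10 such fits and in 5 of 11 other settings. Uqcr11 stood at 343, 361 and 349 CPM in WT, 303, 301, 322 and 341 CPM in Het, and 323, 261 and 256 CPM in KO (log2 -0.33, adjusted p 0.00987). KO replicate 1 lay at the level of Het replicate 3, and the other KO embryos lay below every other embryo.

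In complex IV, 4 of 17 genes passed higher and none lower, and Cox6b2 was the one past the fold threshold. Cox4i1, the common form of subunit 4, passed with a log2 fold change of 0.22. In ATP synthase, 3 of 16 passed higher and 2 lower. Atp5k, subunit e of the membrane part, stood at 416, 461 and 395 CPM in WT, 286, 307, 333 and 391 CPM in Het, and 329, 256 and 249 CPM in KO (log2 -0.61, adjusted p 0.00330). Atp5o, which encodes the OSCP subunit of the stalk, stood at 406, 423 and 405 CPM in WT, 484, 504, 492 and 416 CPM in Het, and 508, 520.2 and 458 CPM in KO (log2 0.27, adjusted p 0.0132). In both genes the 3 Het embryos of prefix B lay apart from WT, while Het replicate 4 lay inside the WT range in Atp5o and just under it in Atp5k. Atp5e, the epsilon subunit, fell by 0.26 (adjusted p 0.0284), and did not pass the adjusted p in 4 of 10 fits that left out an embryo. In such fits Cox6b2 did not pass it in 3, Sdhd in 2 and Atp5o in 1. A list of 21 main subunits holds redox and catalytic proteins and others, among them Uqcrc1, Uqcrc2, Atp5c1, Cox4i1, Cox5a and Cox5b. Of these 21 genes 6 passed higher and none lower at the adjusted p, against 18.9% and 17.9% of all genes. Sdhd alone of them passed the fold threshold. Atp5o, Ndufb2, Ndufb8 and Ndufb9 share exon sequence with another annotated gene on the same strand, so their counts are uncertain.

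**Figure D1:**
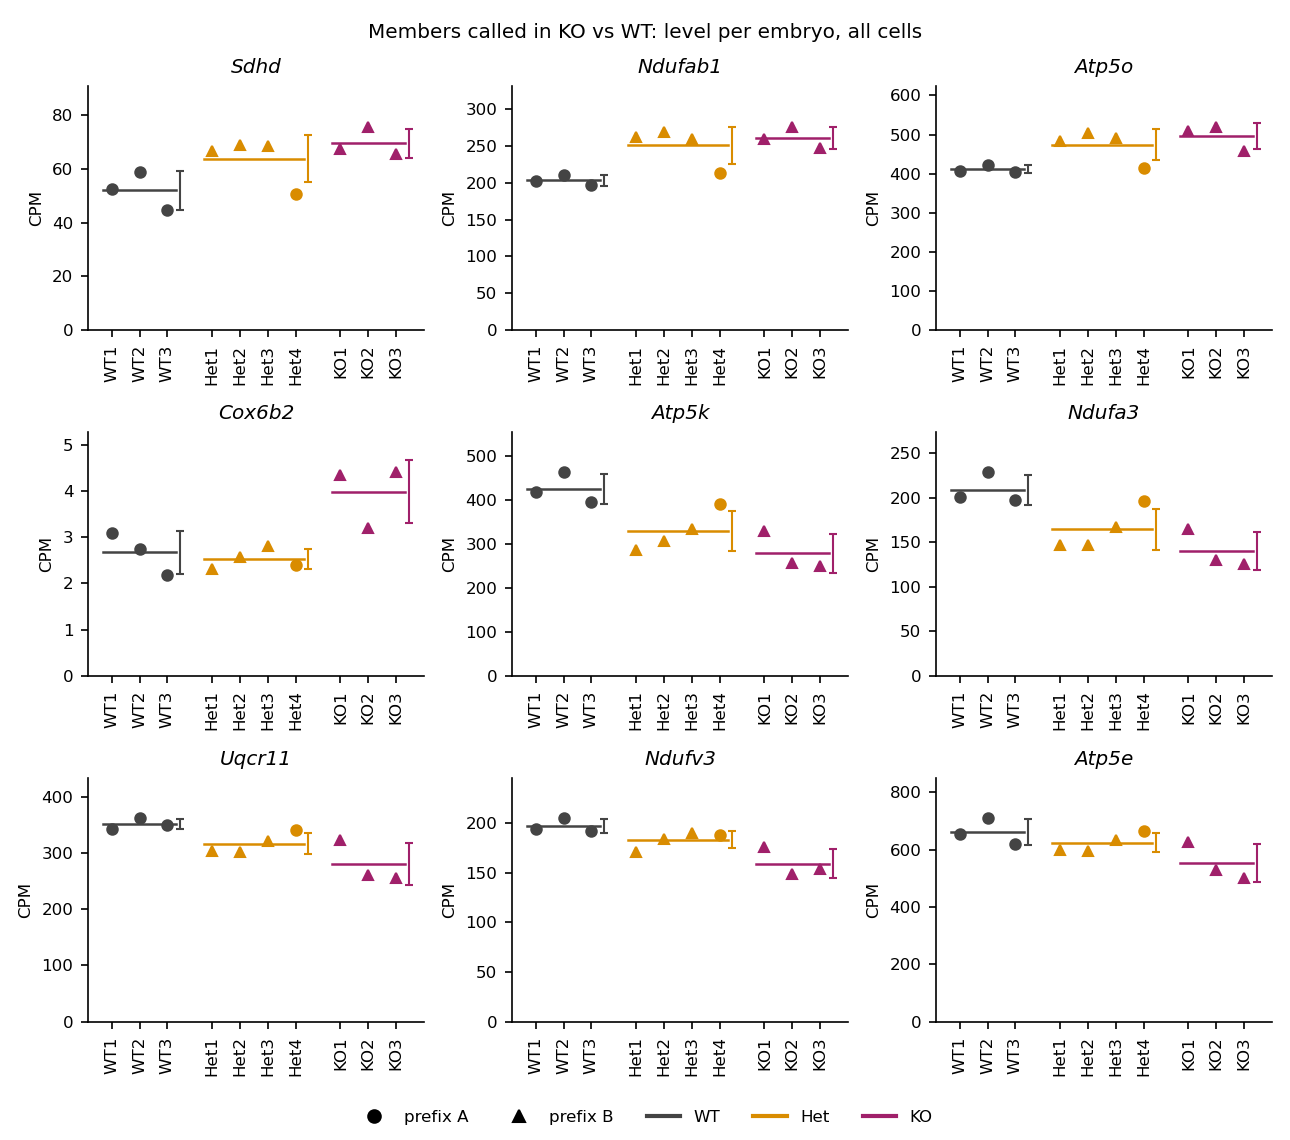
Level in CPM (linear axis) of the 9 genes called in KO against WT, 1 point per embryo for WT, Het and KO, circles for prefix A and triangles for prefix B, with the group mean (line) and SD (bar). In Ndufab1, Sdhd and Atp5o the circle among the Het points lies with WT and the triangles lie with KO.

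Promoter sequence is shown for Cox6b2 and for 3 of the 5 genes called lower in KO against WT, those 3 because they held a match to a motif that was searched. The windows run from 250 bases before to 50 bases after the start of transcription (RefSeq, GRCm38.p6), and 68 of the 85 identifiers had one. Capitals mark exact matches, on either strand, to GCATGCGC (NRF1), CCGGAAGT (an ETS site as bound by GABPA) or AAGATGGC (YY1), 3 factors known to act on respiratory chain genes. Atp5k lies at chr5:108434350-108434649 on the minus strand, Uqcr11 at chr10:80406772-80407071 on the minus strand, Ndufa3 at chr7:3617123-3617422 on the plus strand, and Cox6b2 at chr7:4753045-4753344 on the minus strand.
Atp5k: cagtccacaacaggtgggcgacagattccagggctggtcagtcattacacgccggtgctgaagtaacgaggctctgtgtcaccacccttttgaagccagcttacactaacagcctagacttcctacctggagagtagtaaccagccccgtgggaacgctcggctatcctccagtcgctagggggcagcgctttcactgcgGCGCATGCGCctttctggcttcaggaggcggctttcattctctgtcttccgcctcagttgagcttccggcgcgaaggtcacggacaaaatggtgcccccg
Uqcr11: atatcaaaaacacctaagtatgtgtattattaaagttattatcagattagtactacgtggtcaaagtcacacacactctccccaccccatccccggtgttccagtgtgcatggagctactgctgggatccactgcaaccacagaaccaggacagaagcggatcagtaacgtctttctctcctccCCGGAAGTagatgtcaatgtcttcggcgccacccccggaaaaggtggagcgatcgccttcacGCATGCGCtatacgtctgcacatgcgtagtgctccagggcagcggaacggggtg
Ndufa3: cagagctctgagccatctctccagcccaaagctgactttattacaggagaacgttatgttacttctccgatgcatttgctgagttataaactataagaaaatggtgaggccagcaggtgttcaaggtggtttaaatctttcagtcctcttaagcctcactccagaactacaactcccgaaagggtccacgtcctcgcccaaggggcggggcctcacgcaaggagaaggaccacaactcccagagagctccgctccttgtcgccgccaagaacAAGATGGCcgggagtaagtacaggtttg
Cox6b2: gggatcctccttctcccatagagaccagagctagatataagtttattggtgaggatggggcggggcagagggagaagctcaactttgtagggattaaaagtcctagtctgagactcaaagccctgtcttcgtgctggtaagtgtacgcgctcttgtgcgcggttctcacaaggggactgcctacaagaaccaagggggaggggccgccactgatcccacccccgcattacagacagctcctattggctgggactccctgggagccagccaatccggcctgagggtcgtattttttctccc
The match in Atp5k began 50 bases before the start and reads as the NRF1 letters on both strands, which overlap. Uqcr11 held an ETS match from 66 bases before the start and an NRF1 match downstream of it, and Ndufa3 a YY1 match 22 bases after the start. Cox6b2 held none of these letters in its window, and neither did the others called higher, Ndufab1, Sdhd and Atp5o. Atp5e and Ndufv3, also called lower, held none either. Over the 67 symbols with a window, 10 (14.9%) held the NRF1 letters, 5 (7.46%) the ETS letters and 8 (11.9%) the YY1 letters, against 2.80%, 4.00% and 2.88% of 27025 genes. Any of the 3 was present in 4 of 7 genes that were lower at the adjusted p, in 4 of 16 that were higher and in 14 of 43 that did not pass.

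KO against Het within 1 prefix left 1 of the 82 genes called. Cox6b2, the form of subunit 6b known from testis, rose (log2 0.63, SE 0.16, adjusted p 0.0330), where 2.71% of all genes rose and 3.17% fell. It stood at 3.09, 2.76 and 2.17 CPM in WT, 2.32, 2.58, 2.82 and 2.39 CPM in Het, and 4.35, 3.20 and 4.40 CPM in KO. All KO embryos lay above all 7 others, on 3077 UMIs in all. Its log2 fold change in KO against WT was 0.58 (adjusted p 0.0140). The common form Cox6b1 stood at 574, 607 and 566 CPM in WT, 603, 624, 638 and 605 CPM in Het, and 641, 592 and 559 CPM in KO, and the 3 groups overlapped. Without Het replicate 1, 2 or 3, or without KO replicate 3, in turn, no gene was called. Without KO replicate 1, 3 other genes (Ndufb2, Uqcr11 and Ndufv3) were called lower (4.91% of all genes in either direction) and Cox6b2 (log2 0.57) did not pass, so it lost the call in 5 of 10 such fits.

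The other 81 genes did not pass in KO against Het, and most had negative values. Of the 82 genes 66 were negative, the median was -0.06 (all genes -0.00), and 7 had an unadjusted p under 0.05, against 23.5% of all genes. All 3 KO embryos lay below all of Het replicates 1 to 3 in 7 of 82 genes and above them in 2, against 14.1% and 13.9% of all genes. By complex the negative genes were 31 of 36 in complex I, 3 of 4 in complex II, 8 of 9 in complex III, 14 of 17 in complex IV and 10 of 16 in ATP synthase. KO replicates 2 and 3 were both below KO replicate 1 in 43 of the 82 genes (52.4%), against 32.4% of all genes.

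The prefix itself was tested through Het replicate 4 against Het replicates 1 to 3, with 1 embryo on one side. Prefix B was higher in 3 of 82 genes and lower in none, against 1.94% and 1.54% of all genes, and at the adjusted p alone in 4 and none, against 2.47% and 2.22%. The 3 were Cox4i2 (log2 1.08, adjusted p 0.0236), Ndufab1 (0.31, adjusted p 0.0305) and Ndufs8 (0.27, adjusted p 0.0337), and Ndufb9 (0.25, adjusted p 0.0420) was the fourth. Without Het replicate 1, 2 or 3 in turn Ndufab1 and Ndufs8 did not pass, Cox4i2 did not without Het replicate 2 or 3, and Ndufb9 did not in 7 of 9 fits that left out an embryo. For Cox4i2 the log2 value was 0.17 (not passed) with at most 5% mitochondrial UMIs per cell and 2.86 with doublets removed. Ndufs8, a core subunit with iron-sulfur clusters, stood at 66.0, 70.6 and 65.4 CPM in WT, 78.9, 80.4, 79.0 and 65.7 CPM in Het, and 75.6, 78.7 and 71.9 CPM in KO. The median over the 82 genes was 0.10 (all genes 0.01), and 63 of 82 were positive.

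Across all embryos 29 of the 82 genes had every prefix B embryo above every prefix A embryo, and 5 had every one below, against 11.8% and 11.6% of all genes. Het replicate 4 lay nearer to the WT mean than to the mean of the other Het embryos in 62 of 82 genes, against 59.4% of all genes. Cox4i1 was one of the 29, at 852, 846 and 840 CPM in WT, 985, 1014, 966 and 867 CPM in Het, and 985, 1023 and 946 CPM in KO. Het replicate 4 thus lay just above WT and below the 3 other Het embryos in Cox4i1.

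In Het against WT only Ndufab1 was called (log2 0.30, SE 0.07, adjusted p 0.0440), so 1 of 82 rose and none fell, where 1.58% of all genes rose and 1.4% fell. At the adjusted p alone Atp5g2, 1 of the 3 genes for subunit c, was the second (0.17, adjusted p 0.0440, lost in 8 of 10 fits that left out an embryo and in 5 of 11 other settings), so 2 rose and none fell, against 2.58% and 2.14% of all genes. The median was 0.09 (all genes 0.00), and 62 of 82 were positive. With the prefix as a covariate no gene passed in edgeR (2 at an unadjusted p under 0.05, against 10.8% of all genes) and the median was 0.01, where 0.232% of all genes were called in either direction. Without Het replicate 4 the count was 8, where 10.4% of all genes were called, and Ndufab1 (log2 0.37) passed in that fit alone, losing the call in the 9 fits that left out another embryo. Het against WT and KO against WT share the WT embryos. Atp5k had a log2 fold change of -0.37 in Het against WT and did not pass (adjusted p 0.0779). It passed with DESeq2 (-0.37), with the replicate block (-0.46) and without Het replicate 4 (-0.46). The block holds Het replicate 4 alone, so the block fit and the fit without that embryo are not separate checks. Both compare Het embryos of prefix B with WT embryos of prefix A. Atp5j, which encodes subunit F6 of the stalk, stood at 458, 477 and 449.5 CPM in WT and 501, 513, 507 and 478 CPM in Het, with all Het embryos above all WT embryos though Het replicate 4 by less than 1 CPM, and did not pass.

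**Figure D2:**
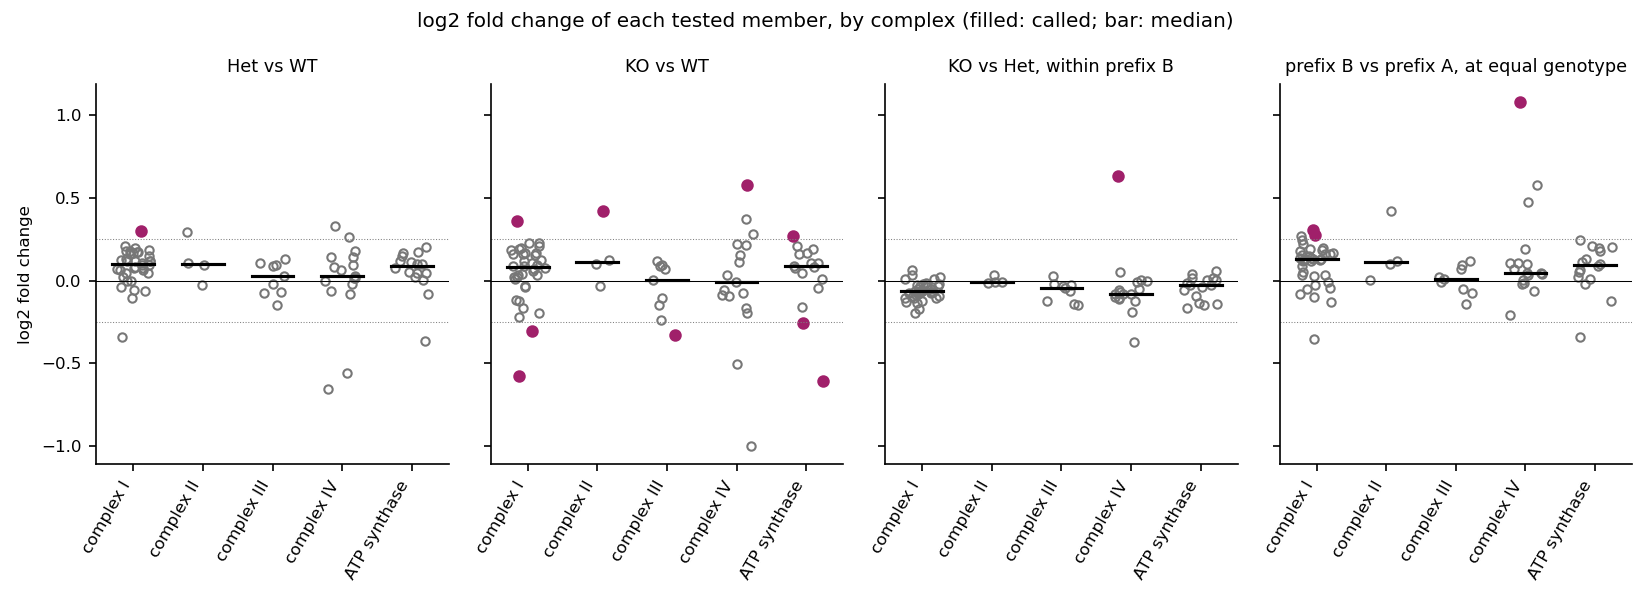
Log2 fold change of each of the 82 genes by complex in 4 panels (Het against WT, KO against WT, KO against Het within 1 prefix, and the prefix term), 1 point per gene, filled where called, with a bar at the median and dotted lines at the fold threshold. The points of KO against Het lie mostly below 0 (66 of 82) and those of the prefix term mostly above 0 (63 of 82).

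The log2 fold changes differed with transcript length, given here as a description without a test. The principal coding transcript of each of the 82 genes ran from 371 to 3171 bases (median 751.5). In KO against Het the median log2 fold change was -0.09 for the 26 genes under 600 bases (24 lower), -0.06 for the 27 from 600 to under 1000 bases (23 lower) and -0.02 for the 29 of 1000 bases or more (19 lower). The medians of other genes of those lengths were -0.02, -0.01 and -0.00, and 54.6%, 52.9% and 50% of them were lower. In KO against WT the medians were -0.12, 0.11 and 0.09, against -0.01, 0.09 and -0.01 for other genes. Across genes the Spearman correlation of length with the log2 fold change was 0.50 in KO against Het (n = 82 genes, which share the same libraries) and 0.30 in KO against WT. The 5 genes called lower in KO against WT included 4 under 600 bases (Atp5k, Ndufa3, Uqcr11 and Atp5e).

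The summed level of the 26 short genes over that of the 29 long genes was 1.53, 1.58 and 1.51 in WT, 1.38, 1.39, 1.45 and 1.54 in Het, and 1.43, 1.28 and 1.30 in KO. The prefix A embryos lay at 1.51 to 1.58, and all prefix B embryos lay below them. Within prefix B, KO replicates 2 and 3 lay below the 3 Het embryos and KO replicate 1 lay among them.

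**Figure D3:**
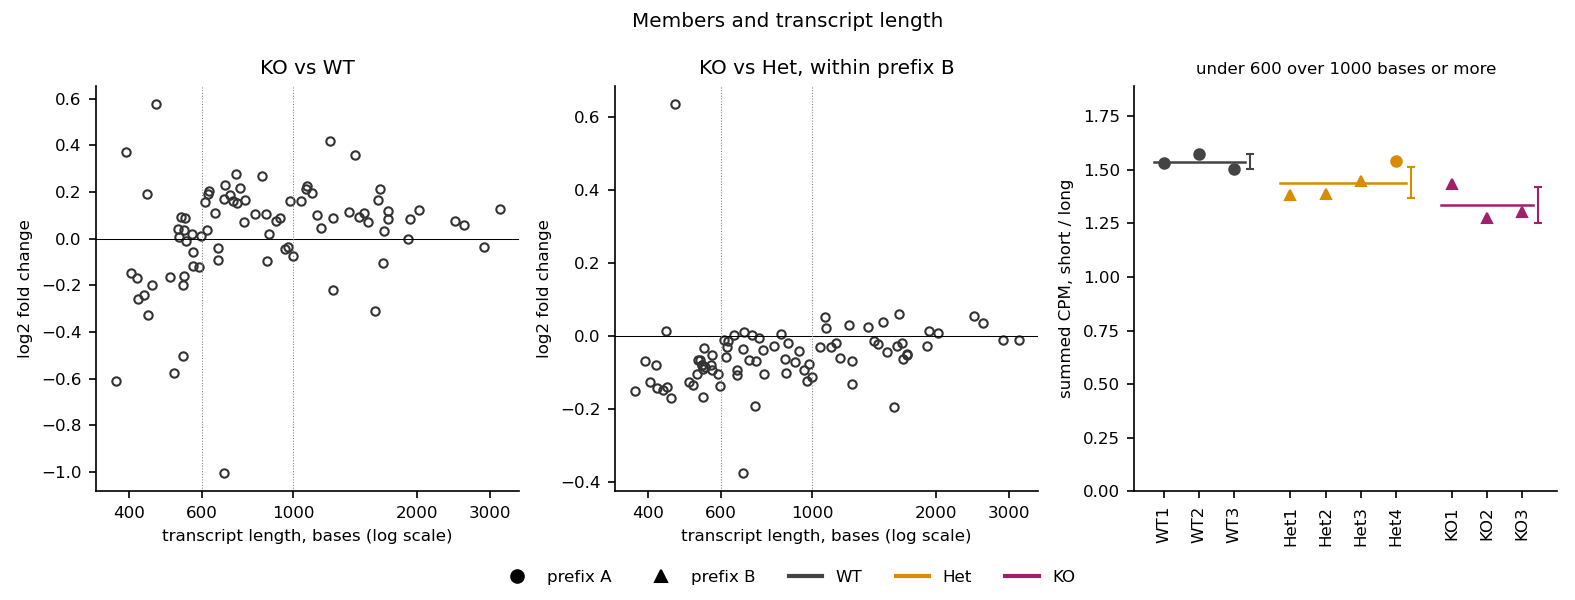
Log2 fold change of the 82 genes in 2 comparisons against transcript length in bases (log axis), and the ratio of the summed CPM of the short genes to that of the long genes in each embryo, circles for prefix A and triangles for prefix B. The 4 circles lie at 1.51 to 1.58 and all 6 triangles below.

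Cell classes were built from clusters made without the 85 genes, and named from marker lists as layer I-like, layer II-IV-like, layer V-VI-like, interneuron-like, striatal inhibitory-like, ganglionic eminence-like, radial glia-like, subventricular zone-like, microglia-like, erythroid-like, endothelial-like and pericyte and fibroblast-like. Clusters that met no marker list clearly were left unnamed and are not in the values by class. They held 14.8% to 20.8% of the cells of an embryo. Among them were a Tfap2d and Thsd7a cluster of 4485 cells, a Crym and Grp cluster of 3365 cells and a Ttr cluster of 747 cells. The ganglionic eminence-like cluster was led by cell cycle genes, and the radial glia-like cluster scored higher for oligodendrocyte precursor markers than for its own. Among the named classes the 85 genes took the largest share of UMIs in layer I-like cells (Reln-expressing neurons of the marginal zone), 2.92% ± 0.12 (SD, n = 10 embryos). Radial glia-like cells followed with 2.71% ± 0.07, below layer I-like cells in 9 of 10 embryos. Ganglionic eminence-like cells came next at 2.49% ± 0.05 and did not overlap with radial glia-like cells. Pericyte and fibroblast-like cells at 2.48% ± 0.13 and endothelial-like cells at 2.41% ± 0.37 did overlap with them.

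Subventricular zone-like cells held 2.46% ± 0.04, interneuron-like cells 2.41% ± 0.08, striatal inhibitory-like cells 2.40% ± 0.07, layer II-IV-like cells 2.35% ± 0.05, layer V-VI-like cells 2.29% ± 0.08 and microglia-like cells 2.15% ± 0.14, and each overlapped with the next. Erythroid-like cells held 0.282% ± 0.121. These values are shares of the UMIs of a class, and globin genes led the erythroid-like cluster. A list of 20 glycolysis genes was also low there, with 0.0172% of UMIs against 0.306% in ganglionic eminence-like cells. The part of globin RNA in the erythroid-like values was not tested. Over 11 classes, without endothelial-like cells, 42 of the 82 genes had their highest mean CPM in layer I-like cells, 13 in radial glia-like cells and 13 in pericyte and fibroblast-like cells, while 81 were lowest in erythroid-like cells. Of the layer I-like cells 26.0% and of the pericyte and fibroblast-like cells 41.0% were marked as doublets.

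**Figure D4:**
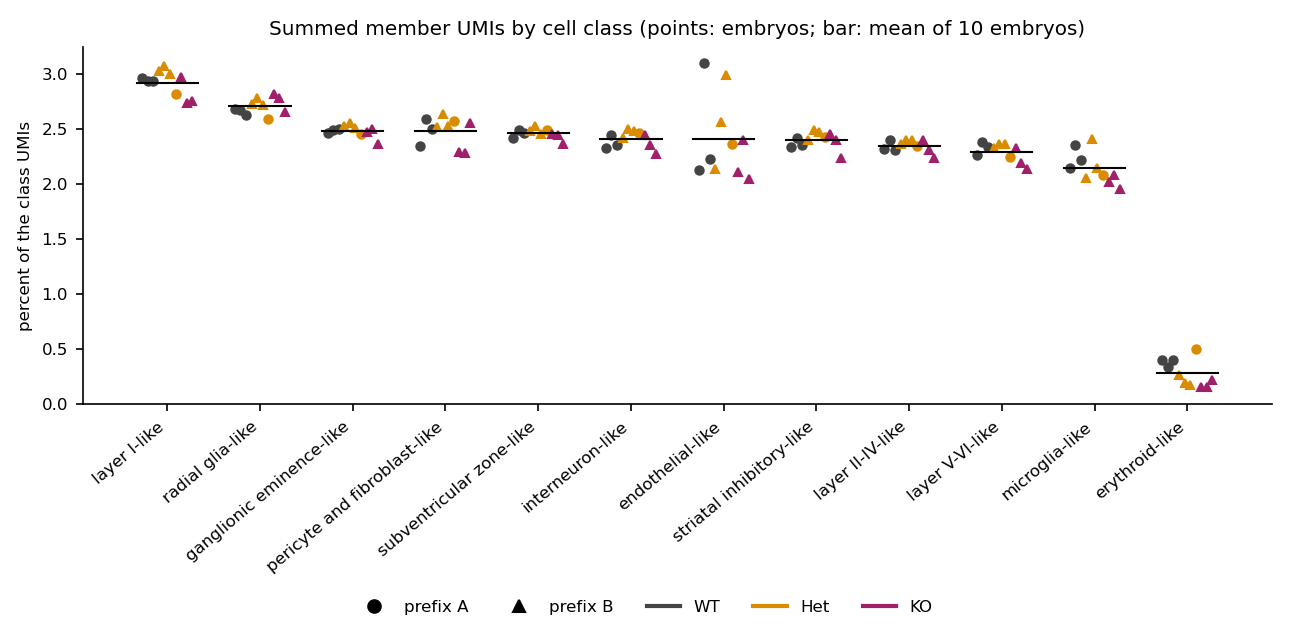
Share of UMIs (percent) from the 85 genes in each named cell class, 1 point per embryo, circles for prefix A and triangles for prefix B, with a bar at the mean of the 10 embryos. Layer I-like and radial glia-like cells stand highest (2.92% and 2.71%) and erythroid-like cells lowest (0.282%).

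Alternative subunit forms differed between classes, given here as shares of the UMIs of a set of forms. Cox4i2, the form of subunit 4 known from lung and low oxygen, stood at 225 ± 51.1 CPM in pericyte and fibroblast-like cells (SD, n = 10), or 16.6% of the Cox4i1 and Cox4i2 UMIs, and at 9.05 ± 1.60 CPM in radial glia-like cells. In layer I-like cells it stood at 2.68 CPM. In interneuron-like, striatal inhibitory-like, layer II-IV-like and layer V-VI-like cells it stood at 0.05 to 0.09 CPM, with 20 UMIs in all layer II-IV-like cells. Its level over all cells was 2.03, 2.56 and 3.00 CPM in WT, 3.42, 3.44, 3.66 and 1.66 CPM in Het, and 3.29, 3.20 and 2.73 CPM in KO. Within pericyte and fibroblast-like cells Het replicate 4 stood at 174 CPM, against 285, 238 and 196 CPM in the other Het embryos and 136, 190.2 and 243 CPM in WT, so the groups overlapped there. Pericyte and fibroblast-like cells made up 0.303% of the cells of Het replicate 4 and 0.389% to 0.624% of those of the other embryos.

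The 3 genes for subunit c of ATP synthase held different shares in different classes. Atp5g2 gave 54.2% of the UMIs of Atp5g1, Atp5g2 and Atp5g3 in subventricular zone-like cells, 50.9% in radial glia-like cells and 31.8% in layer V-VI-like cells. Atp5g1 gave 23.5% in subventricular zone-like and 40.6% in layer V-VI-like cells. A high Atp5g2 level was not limited to progenitors. In microglia-like cells Atp5g1, Atp5g2 and Atp5g3 stood at 331, 658 and 244 CPM, and in pericyte and fibroblast-like cells at 270, 591 and 315 CPM. Among neurons they stood at 392, 399 and 291 CPM in layer II-IV-like and 352, 421 and 301 CPM in interneuron-like cells. Cox6b2 gave 35.2% of the Cox6b1 and Cox6b2 UMIs in erythroid-like cells, 3.06% in radial glia-like cells and 0.115% in layer II-IV-like cells.

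Within classes, KO against WT again called genes in both directions. In layer II-IV-like cells 6 of 79 genes rose and 6 fell, against 14.4% and 15.7% of all genes. In layer V-VI-like cells 9 of 79 rose and 8 fell, against 12.3% and 12.1%. In interneuron-like cells 3 of 78 rose and 6 fell, against 8.32% and 9.24%, and in subventricular zone-like cells 7 of 78 rose and 4 fell, against 8.61% and 9.76%. Over these 4 classes and radial glia-like cells, Atp5k and Ndufa3 were called lower and Ndufab1 higher in all 5. Atp5o, Cox6b2 and Sdhd were called higher and Atp5e and Uqcr11 lower in 4 of the 5.

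Radial glia-like cells had 21 of 80 genes higher and 2 lower in KO against WT, against 9.3% and 10.9% of all genes. Their share of cells was 1.57% to 2.51% in WT and 2.27% to 3.46% in KO. The 21 came from all complexes and included, from the list of main subunits, Ndufv2, Sdhb, Cyc1, Cox5a, Cox4i1 and Atp5b. Sdhd stood there at 89.3, 85.5 and 65.7 CPM in WT, 110.0, 108, 97.8 and 79.1 CPM in Het, and 110, 136 and 110 CPM in KO (log2 0.61, adjusted p 0.00574). Ndufab1 stood at 251, 253 and 263 CPM in WT, 342, 347, 341 and 286 CPM in Het, and 348, 372 and 341 CPM in KO (log2 0.52, adjusted p 0.00057). In both genes the prefix B Het embryos lay near KO. Without WT replicate 2, WT replicate 3 or KO replicate 2 the count of 23 dropped to 12, 11 and 8, where 12.8%, 12.8% and 12.4% of all genes were called. With the prefix as a covariate 1 gene passed in radial glia-like cells (3.18% of all genes) and 2 in layer V-VI-like cells (10.3%), and 0 in layer II-IV-like (15.8%), interneuron-like (1.51%) and subventricular zone-like cells (3.16%).

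In the smaller classes KO against WT called 5 genes higher and 5 lower of 78 in ganglionic eminence-like cells (7.9% of all genes in either direction) and 4 higher and 5 lower of 77 in striatal inhibitory-like cells (16.9%). In layer I-like cells 1 rose and 4 fell of 79 (5.59%). In erythroid-like cells Atp5j2 and Cox6b2 were called of 70 genes (8.49%), and for Cox6b2 the unscaled CPM gave the other direction, 34.5, 41.9 and 22.6 in WT and 23.4, 19.4 and 39.7 in KO. None was called in microglia-like cells (edgeR, 1.52% of all genes called), where 7 of 76 had an unadjusted p under 0.05 against 20.3% of all genes, or in pericyte and fibroblast-like cells (0.305% of all genes called), where 14 of 78 did against 12.5%. Endothelial-like cells were not tested, since KO replicate 1, Het replicate 2 and KO replicate 2 had 11, 16 and 18 of them, under a minimum of 20. Het replicate 3 had 6.08% of its cells there, which made up 56.5% of the class.

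KO against Het within 1 prefix again left mainly Cox6b2. It was called higher in layer II-IV-like cells (log2 1.30, adjusted p 0.00381), where 12.4% of all genes were called in either direction and 1 of the 79. It was the 1 gene called of 80 in radial glia-like cells (0.96, adjusted p 0.00644, 2.94% of all genes) and of 78 in subventricular zone-like cells (1.10, adjusted p 0.0353, 2.69% of all genes). In subventricular zone-like cells the count was 0 with DESeq2, with the finer clustering, and without Het replicate 1, Het replicate 2 or KO replicate 3, and without KO replicate 1 the 1 gene called was Atp5e, lower, in place of Cox6b2. In layer V-VI-like cells, where 10.3% of all genes were called, none of 79 passed both thresholds in edgeR or DESeq2 (22 at an unadjusted p under 0.05 in edgeR, against 25.5% of all genes), and Cox6b2 stood at 1.14 (adjusted p 0.0614). Without KO replicate 1, 8 genes were called there, all lower (8.78% of all genes in either direction), and with no prefix covariate 1 was, Cox6b2 (10.2%). In interneuron-like cells it had 44 UMIs and was not tested.

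In radial glia-like, subventricular zone-like, layer II-IV-like and layer V-VI-like cells Cox6b2 was higher in every KO embryo than in any other embryo. WT and Het overlapped in these classes. In radial glia-like cells it stood at 8.64, 16.7 and 15.0 CPM in WT, 14.4, 13.5, 15.4 and 21.8 CPM in Het, and 25.5, 32.4 and 27.0 CPM in KO. In subventricular zone-like cells it stood at 2.79, 4.36 and 3.73 CPM in WT, 3.62, 3.80, 4.81 and 3.89 CPM in Het, and 11.7, 6.36 and 7.10 CPM in KO. In layer II-IV-like cells, with 231 UMIs in all, the KO embryos stood at 1.32, 0.95 and 1.40 CPM and the other 7 at 0.38 to 0.67 CPM. In layer V-VI-like cells the KO embryos stood at 0.72, 0.74 and 1.28 CPM and the other 7 at 0.31 to 0.50 CPM. These levels are low beside the means of 30.7 CPM in erythroid-like and 19.1 CPM in radial glia-like cells and near those of interneuron-like cells, where WT stood at 0.52, 0.92 and 0.33 CPM, Het at 0.14, 0.10, 0.67 and 0.25 CPM, and KO at 0.73, 0.64 and 0.95 CPM and the groups overlapped. The part of free RNA from other cells in the layer II-IV-like and layer V-VI-like values was not tested. In ganglionic eminence-like cells the groups overlapped, at 4.94, 4.69 and 7.05 CPM in WT, 6.73, 3.83, 8.95 and 9.03 CPM in Het, and 8.99, 6.07 and 9.86 CPM in KO.

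Cox5a, which encodes subunit 5A of complex IV, went in opposite directions in interneuron-like and layer II-IV-like cells of KO against WT. In interneuron-like cells it stood at 723, 767 and 719 CPM in WT, 740, 786, 776 and 734 CPM in Het, and 640, 665 and 618 CPM in KO, with all KO embryos below all others. It was the 1 gene of 78 called there in KO against Het (log2 -0.26, adjusted p 0.0118, 2.36% of all genes called), and in KO against WT it was -0.17 (adjusted p 0.0400). Without Het replicate 2 or KO replicate 3 no gene was called there in KO against Het. In layer II-IV-like cells it stood at 542, 567 and 546 CPM in WT, 574, 595, 565 and 581 CPM in Het, and 612, 639 and 607 CPM in KO, with all KO embryos above all others. There the log2 fold change was 0.20 in KO against WT (adjusted p 0.00209) and 0.10 in KO against Het (adjusted p 0.0970).

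The difference between these classes was then tested with the embryo as a block, a test chosen after these values were seen. The log2 fold change of Cox5a in layer II-IV-like cells exceeded that in interneuron-like cells by 0.40 in KO against WT (SE 0.04, adjusted p 1.06e-06) and by 0.37 in KO against Het (SE 0.04, adjusted p 5.19e-06). With each embryo left out in turn the differences ran from 0.38 to 0.41 and from 0.35 to 0.39. In KO against WT 5 of 80 genes differed at the adjusted p between these 2 classes, against 9.66% of all genes. Between interneuron-like cells and subventricular zone-like or radial glia-like cells 5 of 79 and 2 of 80 did, against 6.4% and 8.82%, and between radial glia-like and layer V-VI-like cells 7 of 80, against 13.9%. In KO against Het, in the same order, 1, 1, 2 and 1 did, against 3.52%, 0.808%, 1.46% and 3.41%.

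Within the interneuron-like class, the Maf, Nxph1 and Lhx6 cluster of 6744 cells stood at 828, 881 and 832 CPM in WT, 864, 901, 868 and 835 CPM in Het, and 734, 717 and 632 CPM in KO. The Adarb2, Htr3a and Prox1 cluster of 2436 cells did not separate, at 416, 437 and 421.6 CPM in WT, 408, 443, 455 and 454 CPM in Het, and 400.4, 426 and 438 CPM in KO. In the Sst and Npy cluster of 1643 cells Cox5a stood at 820.4, 787 and 820.2 CPM in WT, 923, 985, 946 and 852 CPM in Het, and 851, 956 and 895 CPM in KO, so all KO embryos lay above WT and overlapped with Het. Its cells had a median of 3822 UMIs, against 7766.5 and 7263 in the clusters named before it. It scored 0.67 as interneuron-like and 0.44 as layer V-VI-like, and those clusters scored 1.67 as interneuron-like. Gm42418, which the paper removed as mapping to ribosomal DNA repeats, was among its top genes. It held 53 cells of KO replicate 1, and 10.2% of its cells were marked as doublets. The part of the low UMI count in the Cox5a values of this cluster was not tested. That cluster held 15.8% to 18.7% of the interneuron-like cells of WT embryos, 10.3% to 19.8% of those of Het embryos and 6.78% to 15.6% of those of KO embryos, and the Adarb2, Htr3a and Prox1 cluster, where Cox5a was lower, 18.2% to 23.1%, 19.8% to 22.8% and 21.4% to 29.3%. The fourth cluster, of 316 cells of which 98.7% were marked as doublets, stood at 557, 589.8 and 585 CPM in WT, 565, 569, 630.2 and 614 CPM in Het, and 613, 626 and 594 CPM in KO, so its KO embryos also lay above WT and overlapped with Het. With marked doublets removed from the class the KO embryos stood at 640.1, 676 and 623 CPM, below all others (740 to 808 CPM). The part of these shares in the value of the class was not tested, and neither was the difference between the clusters. With classes from the finer clustering the adjusted p of Cox5a in interneuron-like cells was 0.121 in KO against WT and 0.118 in KO against Het.

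**Figure D5:**
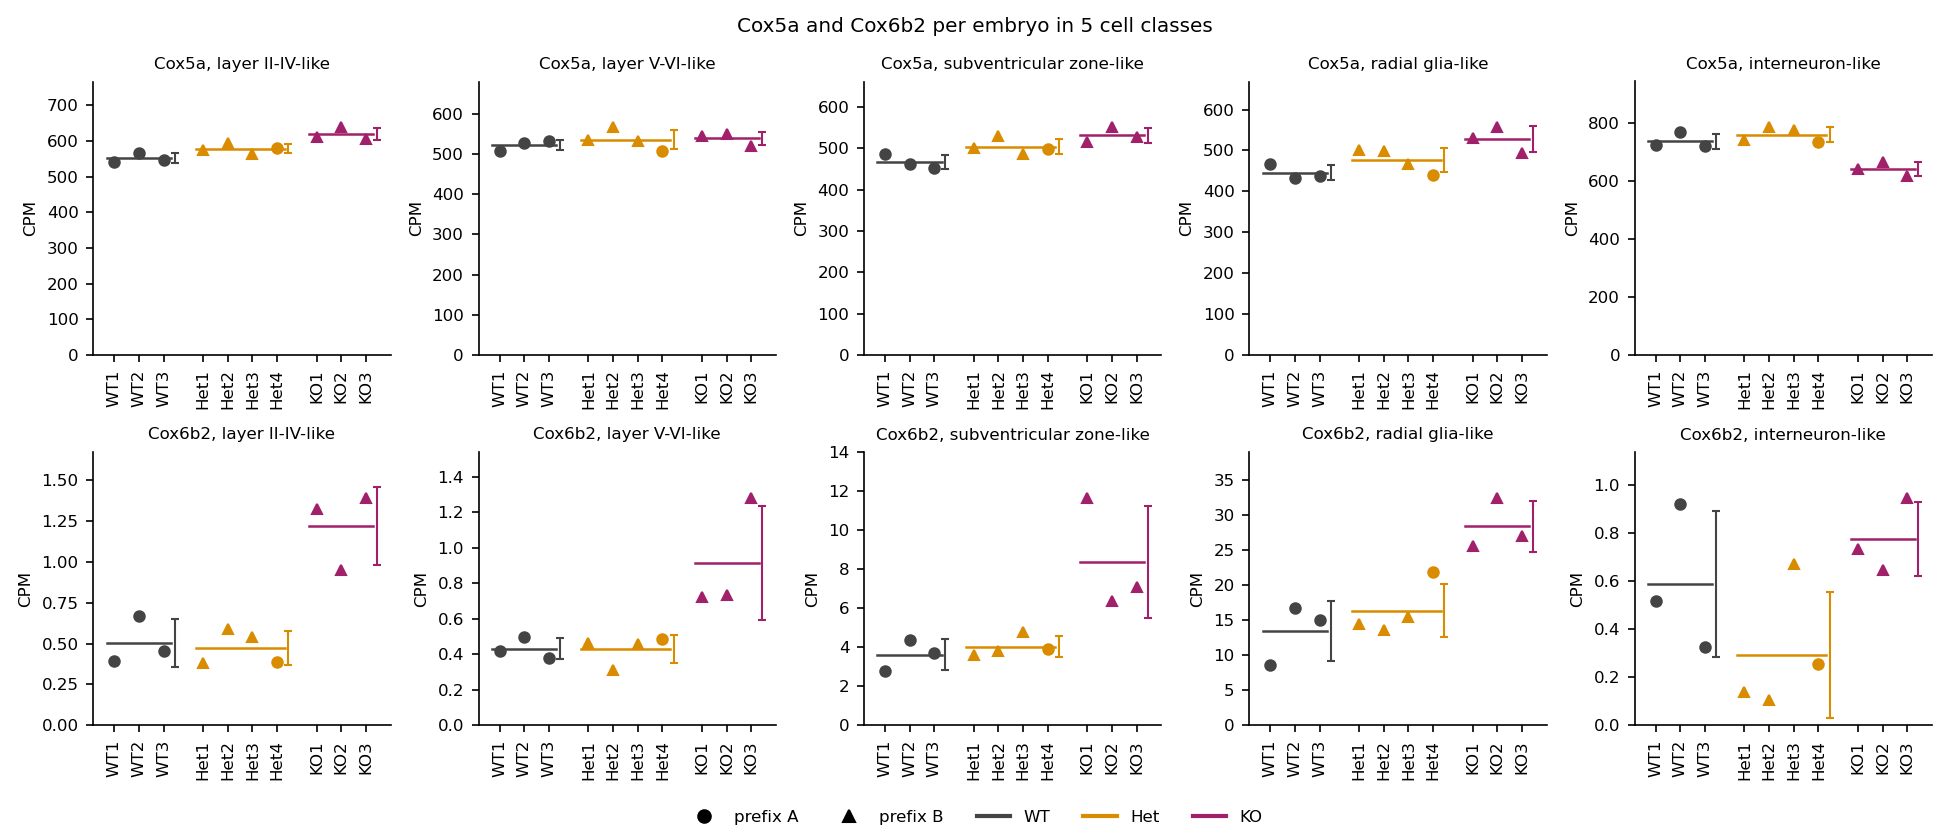
Level in CPM (linear axis, not TMM-scaled) of Cox5a and Cox6b2 in cell classes, 1 point per embryo for WT, Het and KO, circles for prefix A and triangles for prefix B, with the group mean (line) and SD (bar). The KO points of Cox5a lie lowest in interneuron-like cells (618 to 665) and highest in layer II-IV-like cells (607 to 639), and the KO points of Cox6b2 lie highest in radial glia-like cells (25.5 to 32.4).

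The other genes of the pathway were read from the same fits. Of the 13 proteins encoded in mitochondrial DNA, 4 rose and none fell in KO against WT (all genes 12% and 12.5%, as for the lists that follow), mt-Atp6 the most (log2 0.43, adjusted p 0.0206), and in KO against Het their log2 fold changes ran from -0.11 to 0.05 with the lowest adjusted p at 0.446. The prefix term called 4 of the 13 higher, against 1.94% of all genes. Their summed share of UMIs was 3.93% ± 0.119 in WT (SD, n = 3), 4.49% ± 0.184 in Het replicates 1 to 3, 3.67% in Het replicate 4 and 4.49% ± 0.129 in KO. Of 46 assembly factors 6 rose and 6 fell in KO against WT. Pet100, which assists complex IV, fell by 0.69 on the log2 scale, and Bcs1l, which inserts the Rieske protein into complex III, fell by 0.48. Pet100 stood at 78.9, 83.9 and 79.2 CPM in WT, 55.9, 55.1, 60.8 and 72.3 CPM in Het, and 56.8, 48.4 and 45.1 CPM in KO. Within 1 prefix Cox20, a complex IV assembly factor, was the 1 of the 46 called in KO against Het (log2 -0.27, adjusted p 0.0162), where 3.17% of all genes fell.

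Among 20 glycolysis genes 4 rose and 2 fell in KO against WT, against 12% and 12.5% of all genes, and within 1 prefix Eno2 (log2 0.29, adjusted p 0.0340) and Pkm (0.26, adjusted p 0.00317) rose in KO against Het, where 2.71% of all genes did. Pkm, pyruvate kinase, stood at 322, 301 and 313 CPM in WT, 352, 338, 330.1 and 342 CPM in Het, and 411, 411 and 397 CPM in KO, and the KO embryos lay above all others. Slc25a5, an ADP/ATP carrier, was higher in all 3 comparisons at the adjusted p (Het against WT 0.23, KO against WT 0.47, KO against Het 0.21). It stood at 175, 188 and 174 CPM in WT, 219, 214, 208 and 199.8 CPM in Het, and 250.3, 252 and 242 CPM in KO, 3 ranges without overlap. Of the 8 carriers and pores it was the 1 called in KO against WT, and 6 of the 8 were negative in KO against Het (median -0.01). Of 16 genes of the TCA cycle and pyruvate dehydrogenase 1 rose (Suclg2) and none fell, and of 15 regulators of mitochondrial genes none rose and 3 fell (Ppargc1b, Ppargc1a and Twnk) in KO against WT, where 12% of all genes rose and 12.5% fell. At the adjusted p alone 5 of the 16 were higher and none lower, and 4 of the 15 were higher and 3 lower. Of 78 mitochondrial ribosomal protein genes 7 rose and 2 fell in KO against WT, again beside 12% and 12.5%. At the adjusted p alone 31 of the 78 were higher and 4 lower, beside 18.9% and 17.9% of all genes. None of the 78 passed both thresholds in KO against Het (1 at the adjusted p).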

How the data were processed

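Single-cell RNA-seq of 10 embryonic cortices was read from the deposited UMI counts per gene and cell barcode, 1 matrix per embryo. Per the labels and the study's methods, the authors aligned reads to mm10 with Cell Ranger and pooled no replicates. The matrix headers name Cell Ranger 6.0.2, while the methods give another version. Counts were summed per embryo over cells that held 1000 UMIs or more, of which 10% or less were mitochondrial, and again within each cell class (classes with at least 20 cells in every embryo). Total UMIs per embryo ran from 82872641 to 123737385.

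Sums were filtered with filterByExpr, scaled by TMM and tested with edgeR 4.0.16 (quasi-likelihood, R 4.3.3) over all genes with Benjamini-Hochberg adjustment, all 10 embryos in 1 fit. The embryo is the replicate. Levels over all cells are TMM-scaled CPM, and levels within a class are CPM of the class total. KO against Het and the prefix term came from a fit of genotype and library prefix. Class differences were tested with class, genotype and the embryo as a block. DESeq2 1.42.0 was an alternative. The test was checked on simulated counts.

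Clusters came from Seurat 5.3.0 (integrated, 2000 variable genes without the genes described here, 30 components, resolution 0.4, with 0.8 as the alternative). The 26 clusters gave 12 named classes, and the clusters left unnamed entered only the values over all cells. Limits for naming clusters were set after the clusters were seen. Doublets were marked with scanpy 1.11.5 (4.80% to 8.31% of cells) and kept, with their removal as an alternative. Genes, gene lists and classes were chosen with earlier results of these data known. Genes are named where they were among the 5 largest rises or falls at an adjusted p under 0.05, are named by the study, or belong to the main subunit or paralog lists. Cox6b2 and Cox5a were followed by class, and radial glia-like cells were tested in full, after values were seen. Positions and transcript lengths are from GENCODE vM21. Same-numbered replicates of different groups correlated between -0.19 and 0.13 (over 0.1 in 1 of 9 pairs), and other pairs between -0.09 and 0.15. This gave no sign that the numbers pair the embryos, but it cannot exclude shared litters. The paper calls Het and WT littermates, and the labels used here name no litter.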

Additional observations from a re-analysis of the deposited data

Results flagged for a closer look

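In the Het group 1 embryo stood apart from the other 3 by Dixon's ratio (the gap to the nearest embryo over the whole range, above its 95% critical value for 4 samples) in 6 of the genes named here. Het replicate 4 was the low embryo in Cox4i2 (0.877), Ndufab1 (0.836), Ndufs8 (0.901), Sdhc (0.914) and Sdhd (0.862), and Het replicate 1 was the low embryo in Cox5b (0.843). Sdhc stood at 76.7, 76.2, 76.6 and 70.4 CPM in Het and at 68.5, 71.8 and 68.6 CPM in WT. Over all 82 genes 7 (8.54%) passed that value, against 6.79% of all genes tested, and chance flags about 1 in 20. Het replicate 4 is also the one Het embryo of prefix A.

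Effects of the same contrast were compared between cell classes by edgeR's quasi-likelihood test with the embryo as a block. The values are given for 4 genes that were followed after their values were seen. In KO against WT 5 of 80 genes differed between layer II-IV-like and interneuron-like cells, beside 1402 of 14509 (9.66%) over all genes. Between radial glia-like and layer V-VI-like cells 7 of 80 did, beside 1926 of 13874 (13.9%). Both counts lie under the share of all genes. Cox5a in interneuron-like cells was exceeded in KO against Het by 0.37 in layer II-IV-like, 0.38 in radial glia-like and 0.35 in subventricular zone-like cells, and in KO against WT by 0.40, 0.45 and 0.43 (log2). Within the interneuron-like class all KO embryos lay below WT in the Maf, Nxph1 and Lhx6 cluster only. With the finer clustering Cox5a did not pass in interneuron-like cells. Ndufv3 in interneuron-like cells was exceeded in KO against WT by 0.25 in layer II-IV-like, 0.31 in radial glia-like and 0.46 in subventricular zone-like cells, and in KO against Het by 0.44 in radial glia-like cells. Ndufv3 in radial glia-like cells exceeded that in layer V-VI-like cells by 0.32 in KO against Het. Atp5g1 and Cyc1 in radial glia-like cells exceeded layer V-VI-like cells in KO against WT by 0.38 and 0.27. With each embryo left out in turn Cyc1 lost the call in 6 of 10 fits (0.187 to 0.326 over the 10), Ndufv3 in layer II-IV-like against interneuron-like cells in KO against WT lost it in 3, and Ndufv3 in radial glia-like against layer V-VI-like cells in KO against Het lost it in 4.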

How the results depend on the processing

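Counts are genes called of those tested. A count without the share of all genes beside it is not read as a result about these genes. The replicate block takes same-numbered embryos as a block, without a sign that the numbers pair them. Het replicate 4 has no same-numbered embryo and forms a block alone, so it adds nothing to Het against WT in that fit. Het against WT is then prefix B against prefix A, and its count is not read as an effect of pairing. The replicate block gave 8 in Het against WT (1 without the block), as did the fit without Het replicate 4. It gave 9, 1, 12, 17, 9 and 12 in KO against WT, in KO against Het, and in KO against WT within layer II-IV-like, layer V-VI-like, interneuron-like and subventricular zone-like cells (9, 1, 12, 17, 9 and 11 without it). The block could not be fitted with the prefix term alone, and the prefix term could not be fitted without Het replicate 4, where KO against Het used a design without the prefix.

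In Het against WT DESeq2 called 3, the adjusted p alone 2, and 0 were called with only the compared groups, the prefix covariate, at least 3000 UMIs per cell or doublets removed. Leaving out an embryo gave 0 to 8, where 0.414% to 10.4% of all genes were called. In KO against WT the prefix covariate gave 0, the adjusted p alone 27, and leaving out an embryo 6 to 13 (19.2% to 26.3% of all genes). In KO against Het at most 5% mitochondrial UMIs gave 0 and leaving out an embryo 0 to 3 (3.41% to 6.75% of all genes). The prefix term gave 5 with DESeq2 and 5 with the 4 Het embryos alone, and leaving out an embryo 0 to 4 (3 as reported).

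Within classes in KO against WT the prefix covariate gave 0 in layer II-IV-like, 2 in layer V-VI-like, 0 in interneuron-like, 0 in subventricular zone-like and 1 in radial glia-like cells. Leaving out an embryo gave 8 to 14, 14 to 21, 5 to 11, 9 to 19 and 8 to 22 in the same order, and the finer clustering gave 5 in interneuron-like cells. The shares of all genes called when an embryo was left out were 25.9% to 31.2%, 20.2% to 25.7%, 11.2% to 19.5%, 11.9% to 19.8% and 12.4% to 22.5%. In KO against Het, DESeq2 gave 2 in interneuron-like and 0 in subventricular zone-like cells, the finer clustering 0 in both, and no prefix covariate 1 in layer V-VI-like cells. Leaving out an embryo gave 1 to 4 in layer II-IV-like, 0 to 8 in layer V-VI-like (8 without KO replicate 1), 0 to 3 in interneuron-like, 0 to 1 in subventricular zone-like and 1 in radial glia-like cells. In the same order 9.64% to 13.3%, 8.17% to 10.4%, 1.23% to 2.65%, 1.14% to 2.93% and 1.35% to 3.84% of all genes were called.

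With the prefix covariate the median log2 fold change in Het against WT moved from 0.09 to 0.011, and in KO against WT it turned from 0.08 to -0.047. Leaving out an embryo gave medians of 0.07 to 0.11, 0.05 to 0.09 and -0.07 to -0.01 in Het against WT, KO against WT and KO against Het. Single genes that turned direction were Ndufb8 (-0.0085), Ndufb9 (-0.058), Ndufs3 (-0.024) and Sdhd (-0.0036) in KO against WT with the prefix covariate, Atp5j and Ndufab1 in KO against Het without KO replicate 3 (leaving out an embryo gave -0.0686 to 0.0165 and -0.0568 to 0.0255), and Ndufab1 (0.0581) in KO against Het with no prefix covariate. The cause of these changes was not tested. Of the other single-gene values 733 kept direction and side of the threshold, 180 no longer passed the adjusted p and 4 newly passed it.

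UMI totals limit the precision for genes of low level, such as Cox6b2 with 217 to 463 UMIs per embryo.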
